A study of Mus musculus with 161 samples.

Results

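The Tsix domain is the 200-kb stretch of mouse chromosome X at chrX:100471148-100671148 (mm9) that lies between the bins of boundaries 3 and 4 of topologically associating domains (TADs) in the study. Its contacts were read from chromosome-conformation capture carbon copy (5C), which counts ligation products between a restriction fragment that carries a forward primer and a fragment that carries a reverse primer. The contacts described are the primer pairs whose fragment midpoints both fall in this stretch and lie 40 kb or more apart, a rule that uses coordinates and no measured value. It takes in 543 of the 244944 primer pairs of the 5C design, from 30 forward and 29 reverse fragments. Of these, 431 pairs (79.4%), on 26 forward and 26 reverse fragments, had a value, and the others involve a primer that the authors' correction left out. Fragments of the design had a median length of 1953 bp inside the domain, and the 431 pairs had a median distance of 85.9 kb and reached 193 kb.

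The data comprise 91 5C libraries of 29 lines or conditions, all from male E14Tg2a mouse embryonic stem cells and their subclones, which have a single X chromosome. In 69 libraries, endogenous CTCF carried an auxin-inducible degron (AID) and the cells expressed Tir1, rtTA3G and a CTCF cDNA behind a TetO promoter. These cells were treated for 4 days with auxin, which degrades endogenous CTCF, and doxycycline (dox), which induces the cDNA. The cDNA was full-length in the reference line (FL, 14 libraries), in the same line given auxin without dox (2 libraries) and in a second line with low expression (2 libraries). The mutant cDNAs lacked residues 1–265 (ΔN(1–265), 6 libraries of clone 1 and 4 of clone 2), 13–33 (6 and 4), 1–31 (2 and 2), 1–88, 89–178, 179–265 or 264–288 (2 each), or had the C-terminal deletions Del_576-614 (3), Del_577-736 (1) or Del_615-736 (1), or carried H288R, Y226A/F228A, Y226A/F228A with the 13–33 deletion, the termini in exchanged places (N/C swap) or mutated parylation sites (2 each). Sumoylation mutants 1 and 2 (2 each) joined K74R to Del_576-614 and to Del_615-736. The other 22 libraries were of untreated cells with endogenous CTCF, as untagged parental cells (3), their clones 1 and 2 with residues 13–33 deleted (3 and 4), CTCF-AID, Tir1 parental cells (4) and their deletion clones 1 and 2 (4 each). Each transgene line is a single clone, and by flow cytometry in the study the lines differed in the amount of transgenic CTCF, so that a change in the protein and a change in its amount cannot be told apart here. The longest C-terminal deletion was very weakly expressed in the study. One library counted as Del_576-614 has the genotype Del_615-736 in its label and was grouped by its cell line.

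Between 3631870 and 23419010 ligation products were counted in the 82 libraries with a complete count matrix. The domain's pairs held 32022 to 234419 of them, with a median of about 270 per pair and library, and at most 4.18% of the pairs were at 0 in any library. They make up 0.204% of the kept primer pairs and took 0.706% to 1.03% of the corrected signal. Among these 82, no library pair shared more than 2.32% of equal counts, and each library was counted once. The other 9 were not compared in this way. The labels do not say whether libraries of a line came from separate cultures, and p-values measure the spread between these libraries.

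TADs are stretches of chromosome whose loci touch each other more often than they touch loci beyond the boundaries. Cohesin is thought to extrude chromatin loops until it meets CTCF on DNA, and it is halted best by CTCF whose N terminus faces the incoming cohesin, so that CTCF motifs at the ends of a TAD tend to point towards each other. The Tsix domain belongs to the X-inactivation centre, where Tsix is the antisense repressor of Xist, the noncoding RNA that silences the inactive X chromosome.

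Positions are given below in kb from the start of the domain. On the way from boundary 3 it holds the start of 4930519F16Rik, which reaches in from beyond boundary 3 and is read from 36.0 kb towards it, then Cdx4 (45.6 to 54.8 kb), a homeobox transcription factor gene, Chic1 (80.7 to 120.3 kb) and Tsx (138.7 to 148.8 kb), all protein-coding genes in the annotation. Tsix starts at 155.7 kb and runs on to 209.1 kb, past the end of the domain, and Xist lies on the other strand from 184.6 to 207.4 kb with its promoter beyond the end. Of the 49682 FLAG–CTCF peaks that the authors called in cells with auxin and dox, 8 lie in the domain. None lies in its first 95 kb; 3 are in Chic1 introns at 96.0, 98.7 and 108.9 kb, and 5 are in Tsix introns at 165.2, 168.1, 178.4, 184.4 and 193.4 kb, the last of them also in an Xist exon. Just outside, the boundary 3 bin holds a peak at -15.7 kb and the boundary 4 bin holds peaks at 201.9, 205.9 and 208.4 kb.

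The motif searched, the letters CANNAG followed at once by NNGGC, on either strand, spells the most constant letters of the CTCF motif in the direction in which it is usually written. It was found in 6 of the 8 peaks, on the minus strand in 5 and on the plus strand in 1, whereas 51.7% of the 1128 peaks of chromosome X and 3.01% of its windows of the same 200-bp length hold it. The peak of boundary 3 holds it on the plus strand. Sequences from the mm9 reference are given on the plus strand, 5′ to 3′, with the motif's letters in capitals. They are shown for some of the peaks that face each other across the domain and some at its Xist end.

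Peak at -15.7 kb, plus strand, chrX:100455374-100455433: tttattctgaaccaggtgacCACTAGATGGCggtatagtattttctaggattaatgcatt
Peak at 96.0 kb, minus strand, chrX:100567146-100567205: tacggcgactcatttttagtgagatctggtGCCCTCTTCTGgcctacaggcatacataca
Peak at 165.2 kb, minus strand, chrX:100636318-100636377: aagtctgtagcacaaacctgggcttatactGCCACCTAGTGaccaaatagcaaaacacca
Peak at 168.1 kb, minus strand, chrX:100639256-100639315: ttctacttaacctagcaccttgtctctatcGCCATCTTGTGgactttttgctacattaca
Peak at 178.4 kb, minus strand, chrX:100649555-100649614: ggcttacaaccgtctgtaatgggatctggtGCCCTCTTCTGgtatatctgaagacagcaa
Peak at 184.4 kb, plus strand, chrX:100655544-100655603: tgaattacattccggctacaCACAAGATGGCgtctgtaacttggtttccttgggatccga
Peak at 193.4 kb, no match, chrX:100664536-100664595: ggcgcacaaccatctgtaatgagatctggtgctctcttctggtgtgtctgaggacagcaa
Peak at 205.9 kb, plus strand, chrX:100677054-100677113: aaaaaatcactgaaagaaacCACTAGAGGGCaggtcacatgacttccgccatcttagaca

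Read on the strand of the motif, the peaks at 96.0, 98.7 and 178.4 kb hold the same letters, CAGAAGAGGGC. The window at 193.4 kb equals that at 178.4 kb in 52 of 60 bases (86.7%) and differs from these letters by G9A, counted from 1 at the 5′ end of the motif on the minus strand. From left to right, the peaks with a motif therefore run plus at boundary 3, minus at 96.0 to 178.4 kb, and plus from 184.4 kb to boundary 4. Among these exact matches, the change of strand falls between 178.4 and 184.4 kb, inside the domain and not at its labelled end. The near match at 193.4 kb, beyond this change, reads on the minus strand.

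Contact levels are given as log2 of the observed over the expected signal, where the expected signal of a pair is the mean over all forward and reverse pairs of the same library in the same 10-kb distance class. A level of 0 means as many contacts as the whole 5C region has at that distance. In FL the domain as a whole stood at 0.32 ± 0.041 (SD, n = 14), from 0.25 to 0.40, which is 1.25 times the expected signal. This level was made of opposed ends. Contacts of the first 20 kb with the rest of the domain (147 pairs) stood at 0.90 ± 0.081, with a lowest library at 0.72 and a median of 0.91. Contacts of the last 20 kb with the rest (129 pairs) stood at -0.80 ± 0.087, with a lowest library at -0.94, a median of -0.77 and a highest of -0.64. No FL library came near 0 at either end.

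The fall was a step between neighbouring fragments. In FL, the fragment at chrX:100642408-100647077 (173.6 kb) had a level of 0.54 with the rest of the domain, and the next one at chrX:100647077-100656352 (180.6 kb), which spans the peaks at 178.4 and 184.4 kb, had -0.40. All 7 fragments from 180.6 kb on were below 0, down to -1.22 at 191.1 kb. These last fragments were also below 0 with the DNA beyond boundary 4, where the last 20 kb stood at -0.46 ± 0.090 over 127 pairs of 40 to 200 kb. In FL, then, the measured edge of the contact-rich stretch lay about 20 kb before the labelled end of the domain, where the exact motif matches change strand.

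**Figure D1:**
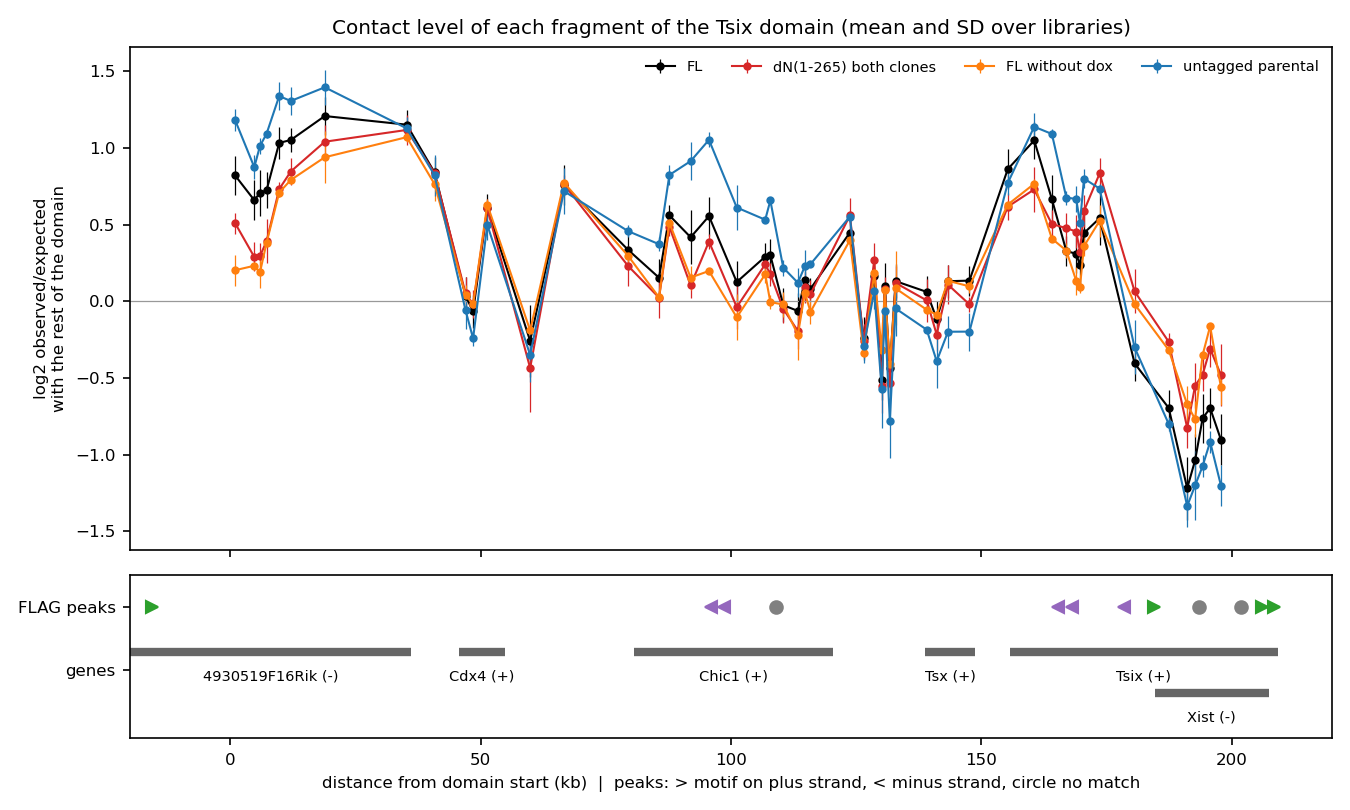
Contact level of each fragment with the rest of the domain against its distance from the domain start in kb, as mean and SD over the libraries of FL, ΔN(1–265) (both clones), FL without dox and untagged parental cells, with FLAG–CTCF peaks (arrowheads for motif strand) and genes drawn below. The FL line drops from 0.54 at 173.6 kb to -0.40 at 180.6 kb, and ΔN(1–265) and FL without dox lie below FL over the first 20 kb and above it from 180.6 kb on.

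The pairs with the highest level in FL joined the upstream part of the domain to the start of Tsix. The fragment at chrX:100483946-100496034 (18.8 kb) and that at chrX:100623270-100629519 (155.2 kb), which holds the annotated start of Tsix, had a level of 2.17. Its corrected signal, which sums to the same total in each library, ranged from 28.5 to 73.97 over the FL libraries, with a median of 46.9. The fragment at chrX:100505552-100507158 (35.2 kb), which holds the start of 4930519F16Rik, and that at chrX:100629519-100633845 (160.5 kb) had a level of 2.13, with 38.8 to 59.0 and a median of 49.7. The next 3 pairs, at 1.76 to 1.85, again joined fragments at 9.74 to 40.8 kb to these fragments at 155.2 and 160.5 kb. In all 5, the downstream fragment lay within the first 10 kb of the Tsix gene or across its start, and its nearest peak with a motif was the minus-strand peak at 165.2 kb.

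**Figure D2:**
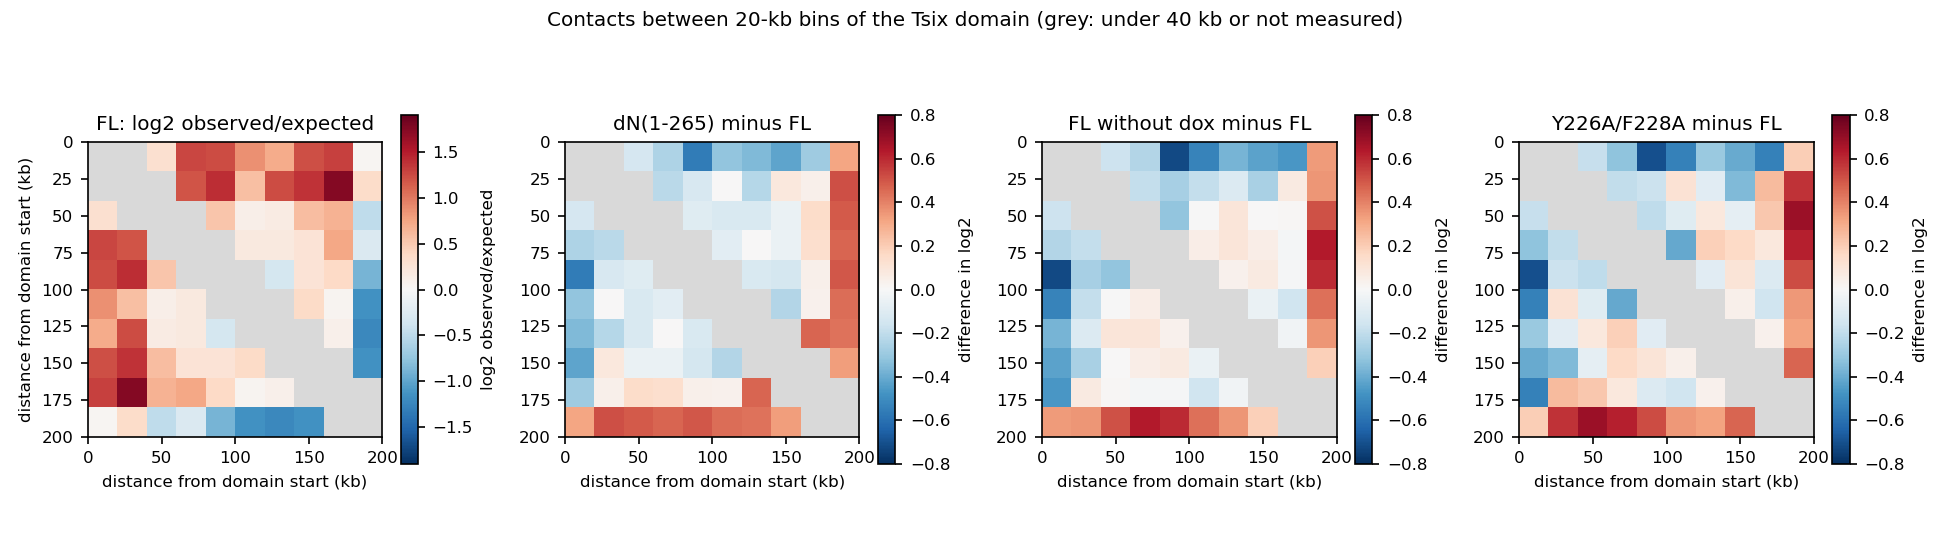
Maps of contact level between 20-kb bins of the domain (axes in kb from the domain start, colour for log2 observed over expected or for the difference from FL). In FL the bin of 20 to 40 kb is high with 160 to 180 kb (1.75) and the bin of 180 to 200 kb is low with those from 40 to 160 kb (-1.23 with 120 to 140 kb). In ΔN(1–265) the row of the first 20 kb is below FL, except with 180 to 200 kb, and the column of 180 to 200 kb is above it.

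ΔN(1–265) had fewer contacts than FL at the first end and more at the last. With the first 20 kb, the 10 libraries of both clones stood at 0.61 ± 0.057, and 10 of 10 were below the lowest FL library. With the last 20 kb they stood at -0.38 ± 0.044, and 10 of 10 were above the highest FL library. As differences from FL these are -0.29 and 0.41 on the log2 scale, or 0.818 and 1.33 times the FL ratio. Within blocks of nearby library numbers they are -0.28 and 0.41. The labels give the numbers, while the blocks were formed here and may not be single preparations. The levels by position are a description without a test, since the bins were looked at after the values had been seen.

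Between the ends, the bins of 80 to 100 kb and 140 to 160 kb stood lower than in FL by their means (0.27 against 0.43, with 7 of 10 libraries below all FL libraries, and 0.18 against 0.33, with 9 of 10). The bins of 20 to 80, 100 to 140 and 160 to 180 kb differed from FL by -0.079 to 0.046. By distance, the 189 pairs of 40 to 80 kb stood at 0.074 in FL and 0.072 in ΔN(1–265), the 125 pairs of 80 to 120 kb at 0.50 and 0.37, the 79 pairs of 120 to 160 kb at 0.80 and 0.69, and the 38 pairs of 160 to 200 kb at 0.50 and 0.56. The middle distances were lower than in FL and the shortest level with it. The block of the first 20 kb with 80 to 100 kb, which ends at the Chic1 peaks, fell from 1.24 ± 0.22 to 0.68 ± 0.14. The block of 120 to 140 kb with 160 to 180 kb, both on the near side of the step, went from 0.099 ± 0.11 to 0.56 ± 0.065.

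Both ends stood on the same side of FL in cells without dox. The 2 libraries of FL without dox stood at 0.48 and 0.56 for the first 20 kb and at -0.43 and -0.35 for the last. Y226A/F228A, a substitution in the stretch of the N terminus that binds cohesin, stood at 0.46 and 0.53 for the first 20 kb and at -0.41 and -0.37 for the last. N/C swap stood at 0.46 and 0.48 for the first, and at -0.41 and -0.40 for the last. In each of these groups both libraries lay beyond all 14 FL libraries, below them at the first end and above them at the last. Within blocks of library numbers their differences from FL were -0.44, -0.26 and -0.46 at the first end and 0.51, 0.33 and 0.48 at the last.

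Over the 22 other transgene lines and conditions, ΔN(1–265) clones counted apart, the first 20 kb was lower than in FL in 18 and the last 20 kb higher in 16. All libraries lay below all FL libraries at the first end in 9 lines, and above them at the last end in 11. In ΔN(264–288) and H288R, which remove or alter the first zinc finger, the last end stood further from FL than the first. This was not particular to them. The differences at the first and last end were -0.29 and 0.41 in ΔN(1–265) and -0.33 and 0.37 in ΔN(179–265). They were -0.38 and 0.41 without dox and -0.40 and 0.41 in Y226A/F228A. N/C swap (-0.43 and 0.39) and FL with low expression (-0.11 and 0.085) had the larger difference at the first end. ΔN(264–288) stood at 0.73 ± 0.015 at the first end and -0.38 ± 0.031 at the last (n = 2), and H288R at 0.87 ± 0.022 and -0.55 ± 0.028 (n = 2). H288R was within the FL range at the first end and beyond it at the last. Clones of the small N-terminal deletions lay on either side of the FL mean at the first end. ΔN(1–31) clone 1 stood at 1.14 and clone 2 at 0.97 there, and at -0.90 and -0.86 at the last end. ΔN(13–33) clone 2 stood at 1.07 and clone 1 at 0.86 at the first end, and at -0.88 and -0.81 at the last. ΔN(1–88) stood at 0.81 at the first end and -0.64 at the last.

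By their means, untreated cells with endogenous CTCF had the opposite ends further apart than FL. At the last end, some of their libraries lay within the FL range of -0.94 to -0.64. Untagged parental cells stood at 1.14, 1.19 and 1.22 for the first 20 kb, all above the highest FL library, and at -0.99, -0.97 and -0.87 for the last. CTCF-AID parental cells had 1.12 ± 0.062 and -0.87 ± 0.11 (n = 4). With residues 13–33 deleted, untagged clone 1 stood at 1.15 ± 0.032 and -0.95 ± 0.015 (n = 3) and clone 2 at 1.11 ± 0.025 and -0.98 ± 0.050 (n = 4). The CTCF-AID deletion clones lay on either side of their parental cells, clone 1 at 1.05 ± 0.025 and -0.76 ± 0.0040 and clone 2 at 1.21 ± 0.0093 and -1.08 ± 0.051 (n = 4 each).

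**Figure D3:**
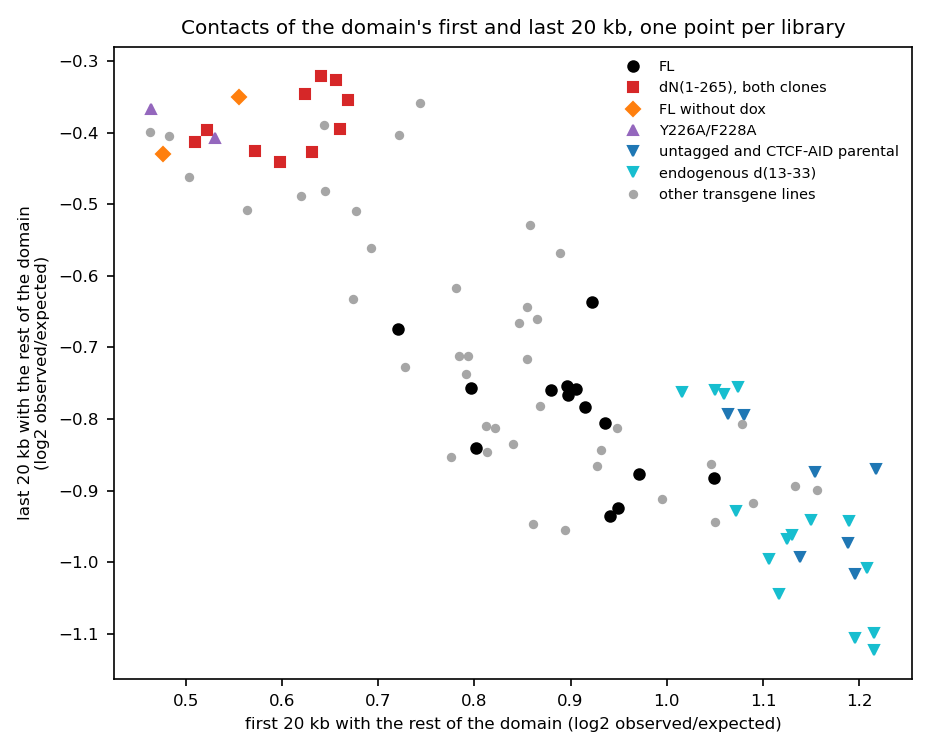
Contact level of the first 20 kb with the rest of the domain (x axis) against that of the last 20 kb (y axis), both as log2 observed over expected, with a point for each of the 91 libraries, coloured by group. Untreated cells lie at the lower right and overlap FL on the y axis. FL libraries lie in the middle at 0.72 to 1.05 and -0.94 to -0.64, and ΔN(1–265), FL without dox and Y226A/F228A at the upper left.

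Across the boundaries the order was reversed. Contacts of the first 20 kb with DNA beyond boundary 3 (94 pairs) stood at -0.31 ± 0.086 in FL and at -0.049 ± 0.061 in ΔN(1–265), where 10 of 10 libraries were above all FL libraries. They stood at 0.072 ± 0.074 without dox and at 0.20 ± 0.081 in Y226A/F228A. In untagged parental cells they stood at -0.67 ± 0.081. Contacts of the last 20 kb with DNA beyond boundary 4 stood at -0.75 ± 0.071 in ΔN(1–265), with 10 of 10 libraries below all FL libraries, and at -0.79 ± 0.079 in Y226A/F228A, against -0.46 in FL. Without dox they stood at -0.57 ± 0.053, inside the FL range. At the first end, contacts with the own domain were thus lower and contacts across boundary 3 higher, and in ΔN(1–265) and Y226A/F228A the reverse held at the last end.

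For the tests, each library gave a single value for the whole domain, and each of the 20 transgene lines with 2 or more libraries was compared with the same 14 FL libraries by a two-sided exact permutation test, with Benjamini-Hochberg adjustment across the 20 lines. A line of 2 libraries cannot go below p = 0.0167 before adjustment. As all lines share the FL libraries, the results of different lines are not independent.

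The contact level of the whole domain differed from FL in 0 of 20 lines. It was lower in 15 and higher in 5, and 7 lines had an unadjusted p under 0.05. The lowest values were those of N/C swap (0.19 and 0.21), FL without dox (0.19 and 0.23) and Y226A/F228A (0.21 and 0.23), each below all FL libraries, with an adjusted p of 0.0556 in the exact permutation test. ΔN(1–265) clone 1 stood at 0.26 ± 0.026 (n = 6, adjusted p = 0.0556, exact permutation test) and clone 2 at 0.26 ± 0.045 (n = 4, adjusted p = 0.0909, exact permutation test). Without FL replicate 12, the FL library with the lowest level, 8 lines were called, and without FL replicate 6, the highest, 1 line. When the level was taken as the mean of the log2 values of the single pairs, the clones of ΔN(1–265) stood 0.023 and 0.0057 above FL. The single library of Del_577-736 had 0.17. Del_576-614 had 0.21 in the library with the conflicting label and 0.28 and 0.29 in the others. Within blocks of library numbers the difference of Y226A/F228A from FL was -0.038 instead of -0.098, as it shares its block with FL replicates 12 and 13, which stood at 0.25 and 0.27.

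Pairs with a fragment in the last 20 kb were also left out, a setting chosen once it was known that these pairs rose, so that the values are a description with no test. The 302 remaining pairs stood at 0.58 in FL. Relative to FL, the level differed by -0.20 without dox, by -0.21 in N/C swap, by -0.19 in Y226A/F228A and by -0.12 in Y226A/F228A with the 13–33 deletion. ΔN(1–265) clone 1 differed by -0.14 and clone 2 by -0.15, and ΔN(13–33) clone 2 by 0.075.

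Contacts within the domain were next set against contacts across its boundaries, as the level of the domain minus the level of the pairs of 40 to 200 kb that join it to DNA beyond a boundary. Against boundary 3, FL stood at 0.41 ± 0.051, from 0.34 to 0.49. Here 13 of 20 lines differed from FL, 11 lower and 2 higher. In Y226A/F228A the value was close to 0, at -0.0059 and 0.048 in the 2 libraries. It stood at 0.092 and 0.11 in N/C swap, at 0.089 and 0.13 in FL without dox, and at 0.21 ± 0.034 (n = 6) and 0.19 ± 0.031 (n = 4) in ΔN(1–265) clones 1 and 2. All of these libraries were below all FL libraries. The adjusted p was 0.00103 and 0.00654 for the ΔN(1–265) clones and 0.0256 for each of the others in the exact permutation test.

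Among the shorter N-terminal deletions, ΔN(179–265), which removes the cohesin-binding stretch, differed from FL by -0.29, ΔN(264–288) by -0.16 and ΔN(89–178) by -0.11, while ΔN(1–88) differed by -0.062 and was not called (adjusted p = 0.222, exact permutation test). Y226A/F228A with the 13–33 deletion differed by -0.23, sumoylation mutant 1 by -0.10 and FL with low expression by -0.088. ΔN(1–31) clone 1 was higher by 0.14 and ΔN(13–33) clone 2 by 0.092, and their sister clones were not called, at -0.056 (adjusted p = 0.229, exact permutation test) and -0.058 (adjusted p = 0.0604, exact permutation test). The call of ΔN(13–33) clone 2 was lost without its replicate 3 or its replicate 4 (0.071 and 0.080). The 11 lines called lower had all their libraries below all FL libraries, and ΔN(1–31) clone 1 had both above. All 13 had the same sign within blocks of library numbers, where they ranged from -0.32 in Y226A/F228A to 0.14 in ΔN(1–31) clone 1. With the mean of the log2 values of single pairs, 7 lines were called.

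Against boundary 4 (526 crossing pairs) FL stood at 1.304 ± 0.12, from 1.19 to 1.61, more than against boundary 3. Here 0 of 20 lines were called by the exact permutation test and 5 had an unadjusted p under 0.05. The lowest adjusted p was 0.0667, shared by ΔN(1–88), N/C swap, FL with low expression, ΔN(1–31) clone 2 and ΔN(264–288), all with both libraries below FL. ΔN(1–265) stood at 1.36 ± 0.076 in clone 1 and 1.35 ± 0.066 in clone 2, and Y226A/F228A at 1.31 ± 0.022, within the FL range.

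**Figure D4:**
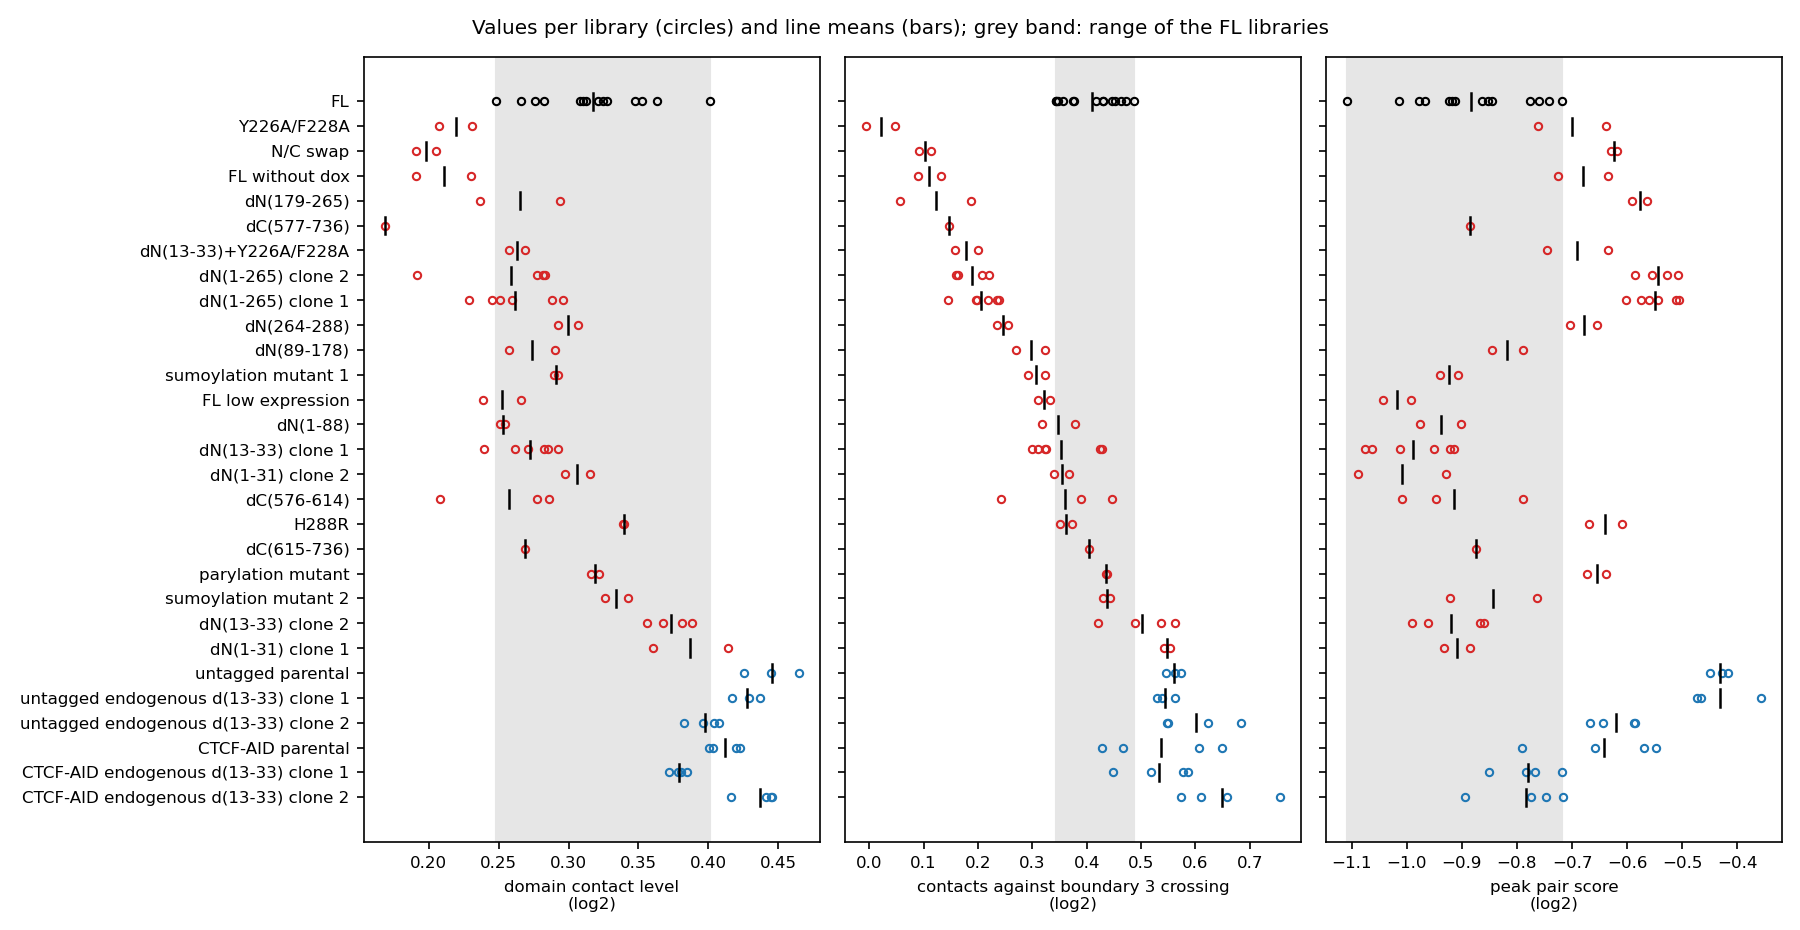
Values per library (points) and line means (bars across) for all 29 lines and conditions: domain contact level, domain against boundary 3 crossing and peak pair score, on a log2 scale, with the FL range shaded. Against boundary 3 crossing, 11 called lines lie below the FL range of 0.34 to 0.49, whereas in the domain contact level only the libraries of N/C swap, FL without dox, Y226A/F228A and Del_577-736 all lie below it.

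In FL, pairs with FLAG–CTCF peaks at both fragments had the lowest contact level of the 3 kinds. The 49 pairs with both fragments within 5 kb of a peak stood at -0.26 ± 0.12 in FL, the 239 pairs with a single such fragment at 0.21 ± 0.049 and the 143 pairs without any at 0.63 ± 0.036. The peak pair score, the first minus the last, was -0.88 ± 0.11 in FL and higher in 7 of 20 lines. They were ΔN(1–265) clone 1 (by 0.33, adjusted p = 0.00103, exact permutation test) and clone 2 (by 0.34, adjusted p = 0.00654, exact permutation test), ΔN(179–265) (0.31), N/C swap (0.26), H288R (0.24), the parylation mutant (0.23) and ΔN(264–288) (0.20), these last 5 at an adjusted p of 0.0476 in the exact permutation test. In all 7, every library was above all FL libraries. Within blocks of library numbers the differences from FL were 0.31 and 0.30 in ΔN(1–265) clones 1 and 2. They were 0.39 in ΔN(179–265), 0.33 in H288R and 0.29 in ΔN(264–288). N/C swap and the parylation mutant came to 0.16 and 0.095 there, less than against all FL libraries. The 5 calls of lines with 2 libraries sit at the smallest p these allow and were lost when any of 12 FL libraries was left out, which left 2 lines called.

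This score also moves with position. A fragment in the last 20 kb is part of 25 of the 49 pairs with peaks at both fragments and of 0 of the 143 pairs without a peak. Without the last 20 kb, pairs with peaks at both fragments stood at 0.20 in both FL and ΔN(1–265), pairs with a single such fragment at 0.61 in FL and 0.52 in ΔN(1–265), and pairs without a peak at 0.63 in FL and 0.42 in ΔN(1–265). With only the 4 pairs in which a peak overlaps each fragment, 0 lines were called by the exact permutation test. The pair that joins the peaks nearest the 2 ends of the domain, chrX:100565597-100567847 (95.6 kb) with chrX:100664702-100665914 (194.2 kb), had a median corrected signal of 7.29 in FL, 10.1 in ΔN(1–265) clone 1 and 7.95 in clone 2, and did not differ beyond the spread (log2 difference 0.24, adjusted p = 0.561, limma).

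The corner score sets pairs that join the first and the last 0.25 of the domain's length (83 pairs) against the other 348 pairs. FL stood at 0.61 ± 0.083, and 0 of 20 lines were called by the exact permutation test, with 3 at an unadjusted p under 0.05. In FL, the first 20 kb with the last 20 kb stood at 0.041 ± 0.13, and in ΔN(1–265) at 0.36 ± 0.096.

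At single pairs, limma was fitted to 84817 primer pairs of the whole 5C region 40 kb or more apart, and all 431 pairs of the domain passed its filter on mean signal. In ΔN(1–265), both clones together against FL, 47 of the 431 pairs (10.9%) were called at an adjusted p under 0.05, of which 37 were lower and 10 higher, against 0.968% of all pairs tested, 0.878% lower and 0.0896% higher. The median difference was -0.025 over the domain's pairs and -0.10 over all pairs. In simulated data with a log2 change of 1 in this contrast, limma recovered 84% of changed pairs drawn from the domain. It recovered 21% of changed pairs drawn from all pairs. The 10.9% and 0.968% called therefore do not compare the shares of pairs that changed. Of the 37 lower pairs, 35 involved the first 20 kb, which 147 of the 431 pairs do, and 0 involved the last 20 kb. They were 72.2 to 165 kb long. The 10 higher pairs were 40.3 to 76.99 kb long, and 3 of them involved the last 20 kb. Over the 129 pairs of the last 20 kb, 123 had a positive difference, with a median of 0.37. With a term for the block of library numbers 26 pairs were called, 17 lower and 9 higher, and with the replicate number as a block 55 were called, 53 lower and 2 higher. Without ΔN(1–265) clone 2 replicate 1, 27 pairs were called, and edgeR on the raw counts called 15, of which 13 were lower. Pairs that share a fragment are not independent of each other.

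Clone 1 alone had 18 pairs called (15 lower and 3 higher, against 0.351% of all pairs, 0.0165% higher) and clone 2 had 12 (all lower, 0.39%). Y226A/F228A had 20 pairs called, all lower, against 0.696% of all pairs, 0.0141% higher, and 16 of them involved the first 20 kb. With the block of library numbers 7 were called in Y226A/F228A, with the replicate block 40 and by edgeR 12. N/C swap had 9, all lower (0.0424% of all pairs), and FL without dox 6, all lower (0.046%). With the block of library numbers, 0 pairs were called in FL without dox. ΔN(179–265) had 4, all lower (0.671%), and Y226A/F228A with the 13–33 deletion 2, both lower (0.0377%). In the remaining 13 lines tested, limma called 0 of the 431 pairs, with 7 to 89 at an unadjusted p under 0.05. edgeR was run only on those of them with complete count matrices, and its calls for them are not given here. Of all pairs, 0.00236% were called in ΔN(264–288) and in sumoylation mutant 1, 0.00825% in ΔN(89–178), 0.00472% in ΔN(13–33) clone 1 and 0.336% in ΔN(1–31) clone 1 (0.00825% higher). The share was 0.033% in H288R, 0.0377% in ΔN(1–31) clone 2, 0.0106% in ΔN(1–88), 0.00118% in FL with low expression and 0% in Del_576-614, the parylation mutant, sumoylation mutant 2 and ΔN(13–33) clone 2.

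The 5 pairs of the largest fall in ΔN(1–265) all ran from the first 8 kb to the Chic1 peaks or the start of Tsix. The fragment at chrX:100476707-100477396 (5.90 kb) with chrX:100623270-100629519 (155.2 kb) had a corrected signal of 8.78 to 34.7 in FL, with a median of 22.2. In ΔN(1–265) it had 0.761 to 15.5 with a median of 12.3 in clone 1 and 1.83 to 17.6 with a median of 10.1 in clone 2, and the groups overlapped. The log2 difference was -1.43 ± 0.27 (SE, adjusted p = 0.00188, limma). Untagged parental cells had only 7.58, 11.6 and 14.5 and CTCF-AID parental cells 3.90 to 25.9 at this pair, so that FL had the highest mean. In edgeR on the raw counts the pair was not called (-0.98, adjusted p = 0.11).

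The clearest fall was that of chrX:100477396-100479327 (7.21 kb) with chrX:100629519-100633845 (160.5 kb), just inside Tsix. Its signal was 24.8 to 39.6 in FL with a median of 32.0, 12.2 to 20.4 in clone 1 with a median of 18.5, and 12.6 to 20.3 in clone 2 with a median of 15.3. No ΔN(1–265) library reached the lowest FL library, and the difference was -0.94 ± 0.11 (SE, adjusted p = 4.3e-08, limma). Without dox it had 20.1 and 32.6, and in Y226A/F228A 24.3 and 22.1, so that these groups overlapped FL or lay just under it.

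The pair of chrX:100476707-100477396 (5.90 kb) with chrX:100560524-100565597 (91.9 kb), which ends beside the Chic1 peak at 96.0 kb, set the groups furthest apart. Untagged parental cells had 110, 116 and 122, CTCF-AID parental cells 72.6 to 95.1, and FL 28.6 to 63.1 with a median of 51.7. ΔN(1–265) clone 1 had 18.8 to 36.0, clone 2 20.1 to 28.3, FL without dox 17.7 and 25.0, and Y226A/F228A 19.0 and 17.5. The differences from FL were -0.93 ± 0.13 in ΔN(1–265) (SE, adjusted p = 9.2e-06, limma), -1.15 without dox (adjusted p = 0.0295, limma) and -1.35 in Y226A/F228A (adjusted p = 0.000743, limma). All libraries without dox and of Y226A/F228A were below all FL libraries, while clone 1 reached into the FL range. For FL without dox, 0 of the 431 pairs were called with the block of library numbers, this pair included.

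The same fragment at 5.90 kb with chrX:100633845-100636562 (164.1 kb), which holds the minus-strand peak at 165.2 kb, had 20.8 to 42.8 in FL with a median of 31.9 and 12.5 to 21.7 and 14.4 to 20.02 in the ΔN(1–265) clones. Y226A/F228A had 10.7 and 13.8. The differences were -0.90 ± 0.12 (SE, adjusted p = 1.8e-06, limma) and -1.32 (adjusted p = 0.000307, limma). The fragment across the domain start (0.925 kb) with the same 164.1-kb fragment had a median of 15.8 in FL, 6.22 in clone 1 and 4.76 in clone 2, a difference of -1.19 ± 0.25 (SE, adjusted p = 0.00742, limma) that edgeR on the raw counts did not call (adjusted p = 0.119).

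The 5 pairs of the largest rise ran from 110.4 to 128.6 kb, in the last part of Chic1 or beyond its end, to 168.9 to 192.7 kb, in Tsix or Xist. The pair of chrX:100592173-100597573 (123.7 kb) with chrX:100639613-100640516 (168.9 kb), next to the minus-strand peak at 168.1 kb, had the highest signal of them. It was 15.7 to 36.6 in FL with a median of 29.8, 29.8 to 51.7 with a median of 45.7 in clone 1 and 38.0 to 49.9 with a median of 44.5 in clone 2. The difference was 0.60 ± 0.12 (SE, adjusted p = 0.0042, limma). FL without dox had 28.0 and 28.1 here, as FL did, and untagged parental cells had 37.2, 44.5 and 56.3. ΔN(1–265) and cells with endogenous CTCF were thus above FL by their medians, and FL without dox was not.

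The other 4 rises crossed or approached the step. The same fragment at 123.7 kb with chrX:100663727-100663881 (192.7 kb), in Xist, went from a mean of 8.21 in FL to 13.8 and 13.9 in the clones, by 0.75 ± 0.18 (SE, adjusted p = 0.0213, limma). Those at 110.4 with 187.4 kb, 128.6 with 173.6 kb and 113.3 with 180.6 kb rose by 0.67, 0.65 and 0.58 (adjusted p = 0.0342, 0.0193 and 0.0242, limma). The FL medians of these 4 pairs were low, at 7.27 to 18.9. Each of the 5 calls of a rise but that at 168.9 kb was lost without ΔN(1–265) clone 2 replicate 1, at adjusted p between 0.0621 and 0.0902 in limma. That at 110.4 with 187.4 kb was also lost without FL replicate 9, 12 or 13, clone 1 replicate 3, or clone 2 replicate 3 or 4 (adjusted p from 0.0512 to 0.0826 over its 7 lost fits, limma). In edgeR on the raw counts, the rises at 123.7 with 168.9 kb and 110.4 with 187.4 kb were called and the 3 others were not.

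**Figure D5:**
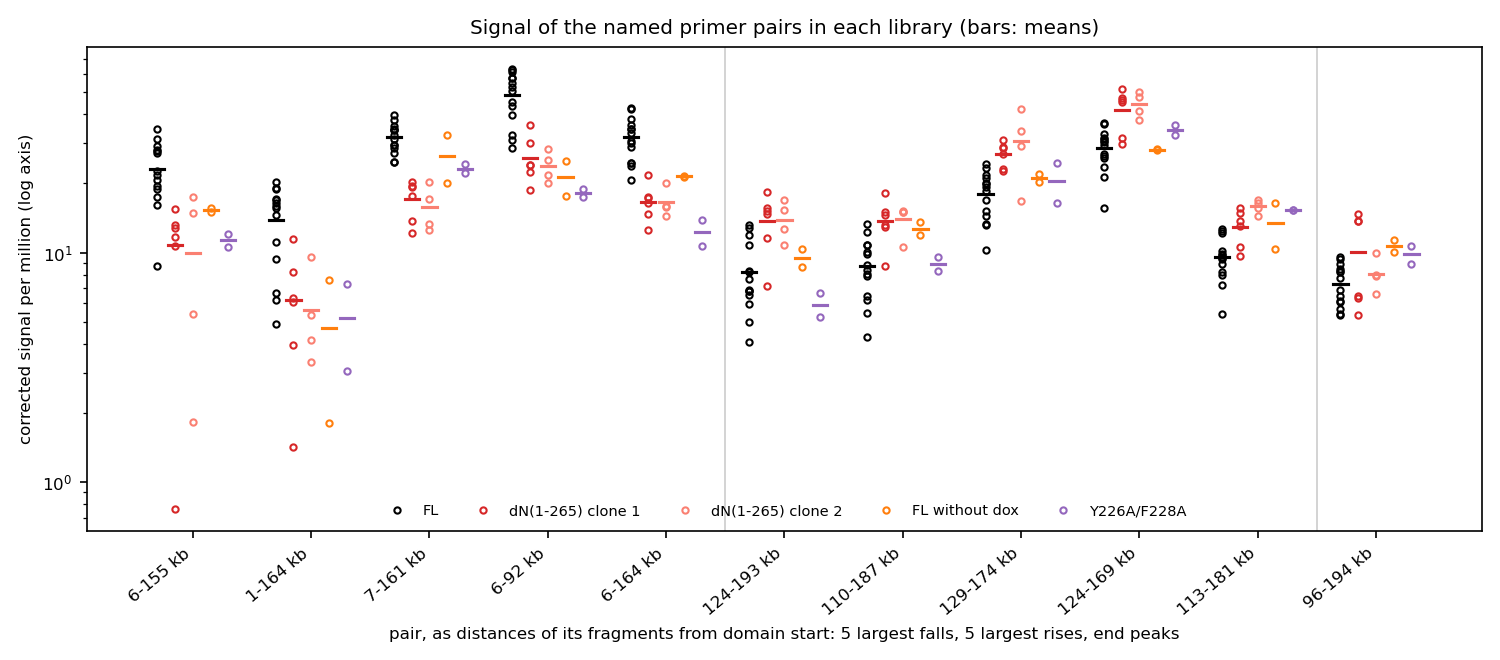
Corrected signal, scaled to the same sum in each library (log axis), of the 5 pairs with the largest fall, the 5 with the largest rise in ΔN(1–265) and the pair of end peaks, with a point for each library of FL, ΔN(1–265) clones 1 and 2, FL without dox and Y226A/F228A. At the pair from 7.21 to 160.5 kb all ΔN(1–265) libraries lie below the FL range of 24.8 to 39.6, whereas at the pair of end peaks the groups overlap.

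The 10 ΔN(1–265) libraries were then compared with the 2 libraries of FL without dox, whose cells had auxin and no induction of the cDNA. Any CTCF left in these cells was not measured here. Of the 5 values per library, 0 were called after adjustment, and 3 had an unadjusted p under 0.05. ΔN(1–265) was higher by 0.088 against boundary 3 crossing, by 0.22 against boundary 4 crossing and by 0.13 in the peak pair score, each with all 10 libraries above both libraries without dox and an adjusted p of 0.0505 in the exact permutation test, the smallest p that 10 against 2 allows being 0.0303 before adjustment. The domain contact level was 0.26 ± 0.032 against 0.21 (adjusted p = 0.152, exact permutation test). At single pairs, limma called 1 of the 431, higher in ΔN(1–265), against 0.0059% of all pairs, 0.00472% higher.

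In untreated cells, deletion of residues 13–33 from endogenous CTCF gave 0 calls among the 5 values in either background, with 1 unadjusted p under 0.05 in each. The domain contact level was 0.41 ± 0.019 in the untagged deletion clones (n = 7) and 0.45 ± 0.020 in untagged parental cells (n = 3, adjusted p = 0.104, exact permutation test). In CTCF-AID cells it was 0.41 ± 0.033 (n = 8) and 0.41 ± 0.011 (n = 4, adjusted p = 0.85, exact permutation test). Against boundary 4 crossing the untagged deletion clones stood at 1.61 ± 0.070 and the parental cells at 1.72 ± 0.042 (adjusted p = 0.0667, exact permutation test). Limma called 0 of the 431 pairs in either deletion comparison and in CTCF-AID against untagged parental cells, while 0.00118%, 0% and 0.00118% of all pairs were called. Of the 431, 12, 10 and 14 had an unadjusted p under 0.05.

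FL stood below untreated CTCF-AID parental cells. It was lower in domain contact level, at 0.32 against 0.41 (adjusted p = 0.0196, exact permutation test), against boundary 4 crossing, at 1.304 ± 0.12 against 1.61 ± 0.076 (adjusted p = 0.0196, exact permutation test), and in peak pair score, at -0.88 ± 0.11 against -0.64 ± 0.11 (adjusted p = 0.0218, exact permutation test). Against boundary 3 crossing it stood at 0.41 against 0.54 ± 0.11 and was not called (adjusted p = 0.0667, exact permutation test). Each of the 3 calls was lost when CTCF-AID parental replicate 1, 2 or 4 was left out, which leaves 3 libraries. In the exact permutation test the call of the domain contact level was also lost with raw counts (-0.12, adjusted p = 0.158), with the median expectation (-0.13, adjusted p = 0.0758) and with the mean of log2 (-0.0038, adjusted p = 1). The call of the peak pair score was lost with the mean of log2 (-0.17, adjusted p = 0.163) and with pairs 60 kb or more apart (-0.19, adjusted p = 0.0784), also in the exact permutation test. Auxin, dox and the transgene cannot be told apart in this comparison.

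The change of the domain was finally set against that of the domains between boundaries 1 and 2 (470 pairs) and between boundaries 4 and 5 (1719 pairs), with pairs of 40 to 200 kb. In ΔN(1–265) the Tsix domain differed from FL by -0.057, the domain between boundaries 1 and 2 by -0.025 and that between boundaries 4 and 5 by -0.034. Without dox the differences were -0.11, -0.063 and -0.079, and in Y226A/F228A -0.098, -0.10 and -0.096. In 0 of the 6 comparisons did the change of the Tsix domain differ from that of the other domain after adjustment. The lowest p, for ΔN(1–265) against the domain between boundaries 1 and 2, was 0.0232 by permutation (adjusted p = 0.139), and it was called without the FL library of replicate number 3 in the later block (-0.037, adjusted p = 0.0191, permutation test). With the mean of the log2 values of single pairs it had the other sign and was called too (0.047, adjusted p = 0.0191, permutation test). The lower overall level was thus not shown to be particular to the Tsix domain.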

How the data were processed

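The 91 5C libraries were analysed from the processed matrices, and FLAG–CTCF ChIP-seq from a peak list made after 2 days of auxin and dox. The authors mapped 5C reads to the primers of an mm9 design of 486 forward and 504 reverse primers and deposited a matrix of raw counts and a matrix of iteratively corrected (ICE) signal per library, the latter balanced over fragments and scaled to a fixed sum, except in 13 libraries, which were scaled here in the same way. The count matrices of 9 libraries ended early and were used in no step on counts, so that the statements on depth cover 82 libraries. Peaks carry coordinates only here.

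Groups followed the labels. The members, the lists and the tests were chosen with earlier results of these data known. For each library the expected signal of a pair was the mean of the ICE signal of all pairs in its 10-kb distance class. A contact level is log2 of summed signal over summed expected signal. Fragments within 5 kb of a peak counted as carrying it. Lines were compared with FL by two-sided exact permutation tests of the mean (100000 resamples where both groups have 10 or more), adjusted over 20 lines, with adjusted p under 0.05 as a call. For single pairs, limma 3.58.1 (R 4.3.3) with a trend was fitted to log2(signal + 0.5) of 84817 pairs 40 kb or more apart with a mean signal of 1 or more, and Benjamini-Hochberg adjusted over all of them. On this scale a fold change understates the change of low pairs. edgeR 4.0.16 (quasi-likelihood, TMM) on the raw counts was an alternative. Both were tested on simulated data. Named pairs are the 5 highest in FL, the 5 largest falls and rises among pairs called in ΔN(1–265) with the same sign in both clones, and the pair nearest the outermost peaks. Motifs were read with pysam 0.24.0 from mm9 and genes from a GENCODE annotation of that build. In 24 comparisons, same-numbered libraries had r from -0.123 to 0.132 and none met the rule for pairs, so numbers were not treated as pairs. Only 8 of the 24 had 3 or more shared numbers, so that this check cannot exclude pairing. Alternatives changed the scale (raw counts), the expected value, the distance, the peak distance, the pseudocount, the filter and the tool, left out each library, or added a block.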

Additional observations from a re-analysis of the deposited data

Results flagged for a closer look

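ΔN(1–265) clone 2 replicate 1 had a domain contact level of 0.1917, while the 3 other libraries of the clone stood at 0.2773 to 0.2835. CTCF-AID endogenous d(13–33) clone 2 replicate 3 had 0.4165, while the others stood at 0.441 to 0.4454. Both are single libraries set apart from their group by the gap to the next value. Of the 40 values of groups of 4 to 10 libraries that were looked at in this way, chance alone sets apart about 1 in 20. In 20 tests of whether clones of a deletion, or untagged and CTCF-AID cells, differed in their change, 0 were called by the exact permutation test after adjustment, with the lowest adjusted p, 0.1905, for ΔN(13–33) clones 1 and 2 in domain contact level (a difference of -0.10).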

How the results depend on the processing

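Over the alternatives that leave out no library, 426 results were unchanged, 37 lost a call, 18 gained one, 56 moved and 31 changed sign. With a library left out these counts were 1222, 81, 6, 17 and 15. A tested value was unchanged if it kept its direction and its side of the threshold. A count of calls, or a value without a test, was unchanged if it stayed close to the main one, and moved otherwise. The causes were not tested unless the setting itself removes pairs or libraries. Raw counts rest on 82 libraries, and for FL without dox on replicate 1 alone.

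Lines called for the domain contact level came to 7 with pairs 60 kb or more apart and to 7 without pairs of the last 20 kb, and to 0 to 8 with a library left out. The pairs of the last 20 kb were left out because they rose, so that this setting supports nothing. For boundary 3 crossing, 7 lines were called with the mean of log2. For the peak pair score it was 2 with raw counts, 0 with a peak overlapping the fragment and 2 to 8 with a library left out. The domain contact level of FL without dox against FL was -0.1787 with raw counts, -0.1224 at 60 kb, -0.1989 without the last 20 kb and -0.126 to -0.08724 with a library left out. ΔN(1–265) clone 1 had 0.02265 with the mean of log2, -0.08709 at 60 kb, -0.137 without the last 20 kb, -0.1036 with the replicate block and -0.06255 to -0.049 with a library left out. Clone 2 had 0.005723, -0.08089, -0.1452 and -0.067 to -0.03642 in turn, without a block. Y226A/F228A had -0.115 at 60 kb, -0.1888 without the last 20 kb, -0.03752 with the block of library numbers and -0.1096 to -0.08607 with a library left out.

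Against boundary 4 crossing, ΔN(1–265) clone 2 had -0.00712 with the block of library numbers, and Y226A/F228A -0.001642 at 60 kb and -0.008847 to 0.03045 with a library left out (-0.002138, -0.0006588 and -0.0006757 below 0). The corner score of FL without dox was 0.01562 at 60 kb and -0.01423 to 0.00827 with a library left out (0.00827 and 0.005904 above 0), that of clone 2 was -0.06517 with raw counts, and that of Y226A/F228A -0.03893 with raw counts, -0.002262 with the median expectation and -0.08637 with a corner of 0.2 of the length. With a peak overlapping the fragment, the peak pair score differed from FL by -0.1179 in ΔN(264–288), -0.0715 in H288R, -0.2611 without dox, -0.01786 in the parylation mutant, -0.1167 in clone 2, -0.04002 in N/C swap and -0.1994 in Y226A/F228A.

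ΔN(1–265) against FL without dox was called for the domain contact level with the median expectation (0.09268). For the untagged deletion the domain level was 0.002446 and the boundary 3 value -0.003966 with the mean of log2, and the latter -0.002355 to 0.02319 with a library left out. For the CTCF-AID deletion the domain level was 0.1104 with raw counts, 0.03708 with the median expectation, 0.0004734 at 60 kb and -0.009296 to 0.00123 with a library left out. CTCF-AID against untagged parental cells had 0.02031 with raw counts and 0.04168 with the mean of log2, and for boundary 3 0.04979 with raw counts and -0.06041 to 0.01293 with a library left out (0.0001148 among them). FL against CTCF-AID parental cells had -0.1171, -0.1332 and -0.003827 with raw counts, the median and the mean of log2, and -0.101 to -0.08922 with a library left out. Against the domain between boundaries 1 and 2, ΔN(1–265) had 0.047 with the mean of log2 and -0.03745 to -0.02528 with a library left out, FL without dox -0.1157 and Y226A/F228A -0.03197 with raw counts. Against that between boundaries 4 and 5, ΔN(1–265) had 0.06988 with the mean of log2, FL without dox -0.1496 with raw counts and 0.04597 with the mean of log2, and Y226A/F228A 0.002737, 0.00168 and 0.09364 with raw counts, the median and the mean of log2, and -0.01466 to 0.01186 with a library left out.

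Of the 431 pairs, limma called 30 in ΔN(1–265) without a filter, 26 with the block of library numbers and 27 to 56 with a library left out (27 without clone 2 replicate 1), and edgeR on the counts called 15. The replicate block gave 55 calls, although the numbers were not shown to pair the libraries. FL without dox had 2 pairs with a pseudocount of 2 and 0 with the block of library numbers. Y226A/F228A had 40 with the replicate block, 7 with the block of library numbers and 12 by edgeR.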
